A study of Sus scrofa with 12 samples.

Results

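Insulin-like peptide 3 (INSL3) and the relaxin family receptors RXFP1 and RXFP2 were followed in ovaries from 12 young female domestic pigs (gilts, Sus scrofa). The 3 genes were found by their symbol in the deposited table of 29150 loci. Each symbol stood on 1 locus, and INSL3 had a locus of its own that was not joined to a neighbouring gene. The study set gilts that cycled against full sisters that did not, and left ovaries were sequenced. The ES group held 6 gilts in which estrus had been recorded over 2 consecutive cycles, and slaughter fell in the third estrus. In the NES group were 6 full sisters, without recorded estrus, from the same Yorkshire breeding population, and their age at slaughter is not stated in the labels or design. Likewise, the labels give no treatment or genetic change for either group. Each library came from a whole ovary of a separate gilt, so follicles, luteal tissue, stroma, vessels and blood cells all contribute to a value, and fewer cells of a type cannot be told apart from less RNA per cell.

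INSL3 is a small peptide hormone of the insulin and relaxin family, cut from a precursor by prohormone convertases. In mammals it is made mainly by the Leydig cells of the testis and by the theca cells that surround the growing follicle, and in cattle it is known to promote theca androgen synthesis. Its receptor is RXFP2, a G protein-coupled receptor with leucine-rich repeats that belongs to the same class as the receptors for luteinizing hormone and follicle stimulating hormone. RXFP1 is the closely related receptor for relaxin, a hormone that loosens connective tissue of the reproductive tract. CYP17A1, the hydroxylase and lyase of androgen synthesis, is a defining enzyme of theca cells and served as the partner gene for INSL3.

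On the pig build Sscrofa11.1 the INSL3 locus (MSTRG.12106) lay on chromosome 2 from 59929584 to 59931219 on the plus strand. JAK3, a cytokine receptor kinase, ended 1162 bases before it on the same strand, and B3GNT3 lay 3378 bases beyond it on the opposite strand. RXFP1 (ENSSSCG00000008875) lay on chromosome 8 from 47473062 to 47604134 on the plus strand, 649 bases from C4orf46. RXFP2 (MSTRG.3222) lay on chromosome 11 from 8266716 to 8321228 on the plus strand. CYP17A1 (MSTRG.8139) lay on chromosome 14 from 113805753 to 113812504 on the minus strand and overlapped a joined locus that holds AS3MT on the plus strand. The strand setting of the counting is not given in the sources used here, so reads from the overlapping stretch may be divided between those loci.

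The libraries held 58140547 to 68961955 counts, and levels are in CPM, counts divided by library size and TMM factor, with the SD over 6 ovaries. Where a locus had no count, its level could be up to 0.0435 to 0.0516 CPM depending on the library, which stands for 3 counts and covers counting error only. Lists of genes that define the ovary had counts in every library. The 13 granulosa genes summed to 792 to 7682 CPM in the ES ovaries and 1880 to 5335 CPM in the NES ovaries. The 10 oocyte genes summed to 24.4 to 50.2 CPM in the ES ovaries and 32.7 to 50.2 CPM in the NES ovaries, although 4 of them had no count in some library. The library ES3 stood apart. Its summed CPM over 11 macrophage and monocyte genes was 1341, against 101 to 140 in the other 5 ES libraries and 78.5 to 190 in the NES libraries. ES3 also had the lowest summed CPM of the 12 libraries over the theca, granulosa and relaxin family lists. ES6 had the highest sum over surface and ductal epithelium genes, at 696 CPM, and held 121 CPM of FOXJ1, a regulator of motile cilia, against at most 0.301 CPM in every other library.

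The hormone was among the abundant transcripts of the pig ovary, whereas both receptors had a mean under 0.5 FPKM. Per length, INSL3 had a mean of 70.3 FPKM over the 12 ovaries, which placed it 94th among all loci of the table. The mean FPKM of CYP17A1 was 63.1, at place 108. RXFP2 had a mean of 0.300 FPKM and RXFP1 one of 0.134 FPKM, at places 21849 and 23716. The mean FPKM of INSL3 was therefore 235 times that of its receptor RXFP2 and 525 times that of RXFP1. RXFP2 exceeded RXFP1 by 2.24 times on the same scale.

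INSL3 read between 0.628 and 99.2 CPM in the ES ovaries, against 59.6 to 116 CPM in the NES ovaries. In ES1 to ES6 the values were 63.6, 99.2, 0.628, 18.2, 42.2 and 41.5 CPM. In NES1 to NES6 they were 62.1, 92.9, 108, 95.4, 116 and 59.6 CPM. In CPM the groups overlapped through ES1 and ES2, and the other 4 ES ovaries lay below every NES ovary. In FPKM 5 ES ovaries did, with ES1 at 58.9 FPKM against a lowest NES value of 64.9 FPKM. The highest and lowest ES values in CPM stood 158-fold apart, and those of the NES ovaries 1.94-fold. The lowest ES ovary, ES3, held 40 INSL3 counts, and its CPM was 94.9-fold below that of the lowest NES ovary.

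INSL3 averaged 44.2 ± 34.6 CPM in the ES ovaries and 88.9 ± 23.3 CPM in the NES ovaries (SD, n = 6 each). The log2 difference, ES minus NES, was -1.01 ± 0.68 (SE), with a 95% interval from -2.48 to 0.46, and the quasi-likelihood test of edgeR gave an adjusted p of 0.495 over 20421 loci (Benjamini and Hochberg). The interval thus included 0, and INSL3 was not called by that test. In the same test 193 loci, or 0.945% of those tested, passed an adjusted p of 0.05, and 16.3% passed an unadjusted p of 0.05, where INSL3 had 0.162. For this gene alone, with no adjustment over loci, the exact permutation test (two-sided) on log2(FPKM + 0.5) gave a difference of -1.89 and p = 0.0130. The same exact permutation test gave p = 0.0519 for RXFP1, 0.121 for RXFP2 and 0.861 for CYP17A1. Without ES3 the edgeR difference was -0.75 (unadjusted p = 0.0559, adjusted p = 0.358), and without both ES3 and ES4 it was -0.53 (adjusted p = 0.453).

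**Figure D1:**
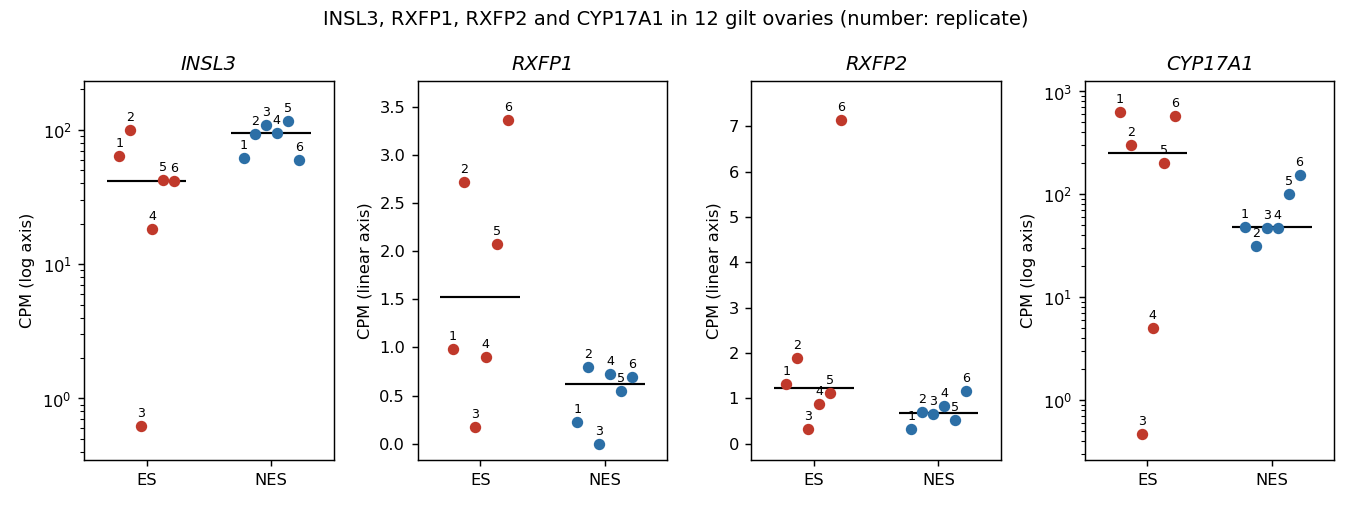
CPM of INSL3, RXFP1, RXFP2 and CYP17A1 in each ovary (vertical axes, log for INSL3 and CYP17A1, linear for the receptors), with ES gilts left in red and NES gilts right in blue, the replicate number above each point and the group median as a line. INSL3 shows 4 of 6 ES ovaries below all NES ovaries and ES3 at 0.628 CPM, and RXFP2 shows ES6 alone at 7.14 CPM.

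The neighbouring gene JAK3 was not low in the ovary where INSL3 was lowest. JAK3 ranged from 15.9 to 55.1 CPM in the ES ovaries and from 23.7 to 36.2 CPM in the NES ovaries. In ES3 it read 54.9 CPM, while INSL3 in the same library read 0.628 CPM. JAK3 is also a gene of the lymphocyte list, whose summed CPM was highest in ES3, at 166 against 46.2 to 98.3 in the other ES ovaries. The part of lymphocytes in the JAK3 value was not tested. The log2 difference of JAK3, ES minus NES, was 0.35 ± 0.24 (SE, adjusted p = 0.504 by edgeR).

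RXFP2, the INSL3 receptor, was detected in all 12 ovaries at 21 to 452 counts. In ES1 to ES6 it read 1.32, 1.90, 0.330, 0.879, 1.13 and 7.14 CPM. In NES1 to NES6 it read 0.328, 0.691, 0.653, 0.822, 0.533 and 1.15 CPM. The groups overlapped, with ES1, ES2 and ES6 above every NES ovary in CPM, and only ES2 and ES6 in FPKM. ES6 alone held 42.3% of the CPM summed over the 12 ovaries. RXFP2 averaged 2.12 ± 2.51 CPM in the ES ovaries and 0.697 ± 0.280 CPM in the NES ovaries (SD, n = 6 each), and the 5 ES ovaries other than ES6 averaged 1.11 ± 0.58 CPM.

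Because both receptors fell under the minimum mean of 0.5 FPKM, their differences were read from the same edgeR fit over all 29150 loci. In that fit 28 loci, or 0.0961%, passed an adjusted p of 0.05, and 14.9% passed an unadjusted p of 0.05. The log2 difference of RXFP2, ES minus NES, was 1.58 ± 0.61 (SE) with a 95% interval from 0.26 to 2.91, an unadjusted p of 0.0229 and an adjusted p of 0.268 by edgeR. Without ES6 the difference was 0.67 (unadjusted p = 0.133, adjusted p = 0.486 by edgeR). ES6 is also the library with the highest sum of epithelial genes, whose part in the RXFP2 value was not tested.

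RXFP1, the relaxin receptor, had 11 to 213 counts in the ES ovaries and 0 to 53 in the NES ovaries. In ES1 to ES6 it read 0.981, 2.72, 0.173, 0.896, 2.07 and 3.36 CPM. In NES1 to NES6 it read 0.228, 0.797, 0, 0.726, 0.548 and 0.696 CPM, and the value of 0 in NES3 allows up to 0.0516 CPM. All ES ovaries but ES3 lay above every NES ovary. RXFP1 averaged 1.70 ± 1.22 CPM in the ES ovaries and 0.499 ± 0.317 CPM in the NES ovaries (SD, n = 6 each). The log2 difference, ES minus NES, was 1.75 ± 0.78 (SE) with a 95% interval from 0.06 to 3.44, an unadjusted p of 0.0436 and an adjusted p of 0.323 by edgeR. Both receptors thus had an unadjusted p under 0.05 by edgeR, and neither passed an adjusted p of 0.05 over all loci. An unadjusted p under 0.05 with a higher ES level was found for 9.06% of all 29150 loci.

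**Figure D2:**
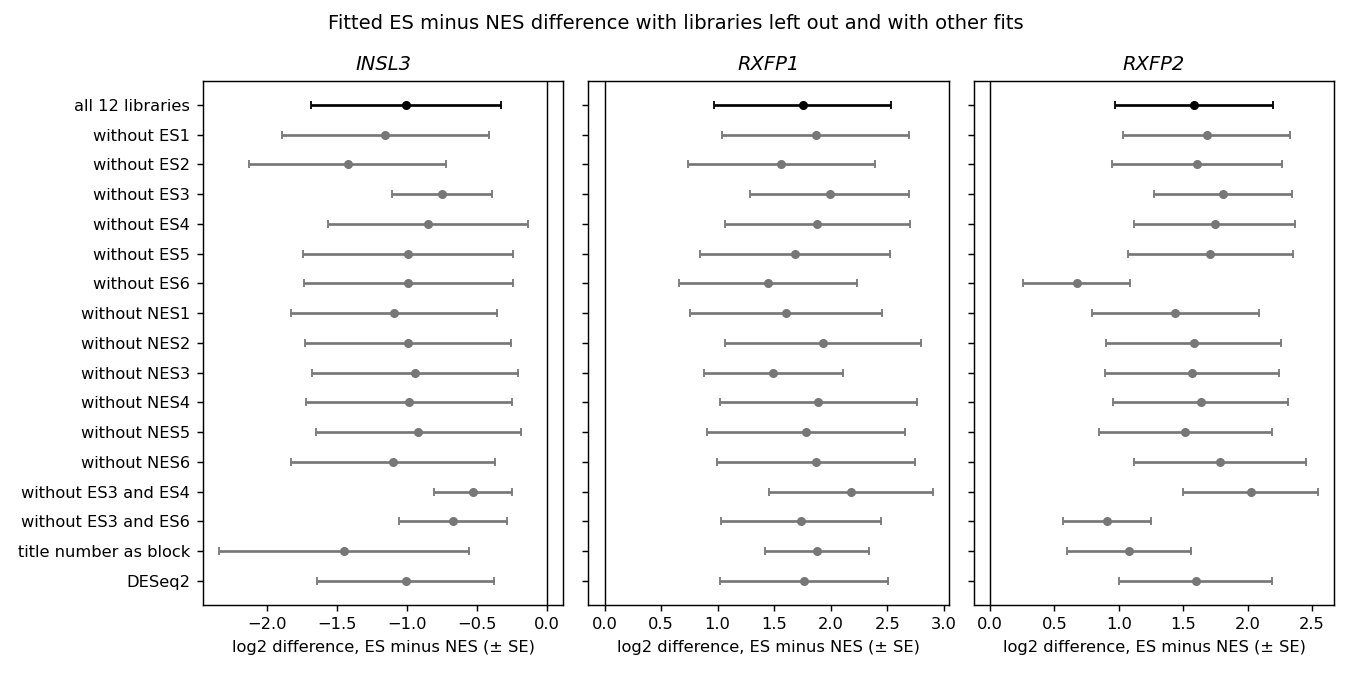
Fitted log2 difference, ES minus NES (horizontal axes, with the SE as bars), of INSL3, RXFP1 and RXFP2 with all 12 libraries (black) and with libraries left out, the title number as a block or DESeq2 (grey). INSL3 stayed below 0 and both receptors above 0 in the fits drawn, while RXFP2 dropped to 0.67 without ES6 and INSL3 lay between -1.42 and -0.75 with 1 library left out.

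With 1 library left out in turn, the edgeR difference of INSL3 ranged from -1.42 without ES2 to -0.75 without ES3, and its adjusted p from 0.317 to 0.613. That of RXFP1 ranged from 1.45 to 1.99 with adjusted p from 0.244 to 0.451. That of RXFP2 ranged from 0.67 to 1.81 with adjusted p from 0.168 to 0.486. No member passed an adjusted p of 0.05 in any of these fits, and none changed sign.

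The other ligands of the family were far scarcer than INSL3. RLN2, the relaxin gene, was named by its overlap with a RefSeq gene and lay on chromosome 1 from 216762882 to 216770145 on the plus strand. Its mean of 1.07 FPKM was exceeded 65.6-fold by that of INSL3. RLN2 averaged 2.99 ± 2.09 CPM in the ES ovaries and 1.73 ± 0.71 CPM in the NES ovaries (SD, n = 6 each), with a log2 difference of 0.79 ± 0.41 (SE, adjusted p = 0.363 by edgeR). Its highest value, 7.17 CPM, was in ES3, the ovary with the lowest INSL3, and the 5 other ES ovaries averaged 2.16 ± 0.49 CPM. RLN3, a relaxin peptide best known from the brain, averaged 0.517 ± 0.624 CPM in the ES ovaries and 0.0695 ± 0.0433 CPM in the NES ovaries, with 111 of its counts in ES6. The log2 difference of RLN3 was 2.85 ± 0.80 (SE, unadjusted p = 0.00359, adjusted p = 0.145 by edgeR over all loci), and ES6 held 49.8% of its summed CPM.

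The remaining members of the family were scarce. RXFP3, the RLN3 receptor, averaged 0.218 ± 0.299 CPM in the ES ovaries and 0.329 ± 0.272 CPM in the NES ovaries (adjusted p = 0.829 by edgeR). RXFP4, the receptor for the gut hormone INSL5, averaged 0.287 ± 0.296 CPM in the ES ovaries and 0.195 ± 0.202 CPM in the NES ovaries (adjusted p = 0.811 by edgeR). INSL5 had counts in 3 of 12 libraries with at most 12 in one, and INSL6 at most 7 counts in any library, so no difference was detectable at this depth. Of the 13 names in the relaxin family list 9 had a locus, 2 of them, INSL3 and RLN2, passed the FPKM minimum, and none passed the test.

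CYP17A1 took both the highest and the lowest values in ES ovaries. In ES1 to ES6 it read 632, 300.2, 0.471, 4.99, 203 and 574 CPM. In NES1 to NES6 it read 48.3, 31.7, 47.0, 47.5, 100.4 and 155 CPM. In the ES group 4 ovaries thus lay above every NES ovary, and ES3 and ES4 lay below every one. CYP17A1 averaged 286 ± 272 CPM in the ES ovaries and 71.6 ± 47.0 CPM in the NES ovaries (SD, n = 6 each), with a log2 difference of 2.00 ± 1.08 (SE, 95% interval from -0.34 to 4.34, adjusted p = 0.383 by edgeR). That difference depended on the scale: limma on log2(FPKM + 0.5) gave 0.26 (adjusted p = 0.949), and on log2(TPM + 0.5) -0.034 (adjusted p = 0.994). Without ES3 the edgeR difference was 2.26 (adjusted p = 0.203). Without both ES3 and ES4, a pair left out after the values were seen, it was 2.58 (adjusted p = 0.0786 by edgeR). The same 2 ES ovaries, ES3 and ES4, had the lowest INSL3 of all 12.

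Across the 12 ovaries the relation of INSL3 to CYP17A1 turned on those 2 ovaries. Pearson's r of log2(CPM + 0.5) was 0.716 (permutation p = 0.0184, adjusted p = 0.0553 over the 6 relations tested among these genes), while Spearman's rho was 0.168 (permutation p = 0.604, adjusted p = 0.700). Without ES3 and ES4, the ovaries farthest from the median of CYP17A1, r was -0.550 (permutation p = 0.102). Every ES ovary left in that set lay above every NES ovary in CYP17A1. That r thus also carries the difference between the groups, and it was not computed with group means subtracted. Without ES3 alone r was 0.251 (permutation p = 0.455), and without ES4 alone 0.703 (permutation p = 0.0865). With the group means subtracted, r over all 12 was 0.852 (permutation p = 0.0235). Within the ES group r was 0.895 (exact permutation p = 0.0194) and within the NES group -0.308 (exact permutation p = 0.569). The pooled relation therefore rests on ES3 and ES4, which are also in the ES and group-centred values. As the 12 gilts include full sisters, they are not fully independent of each other.

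**Figure D3:**
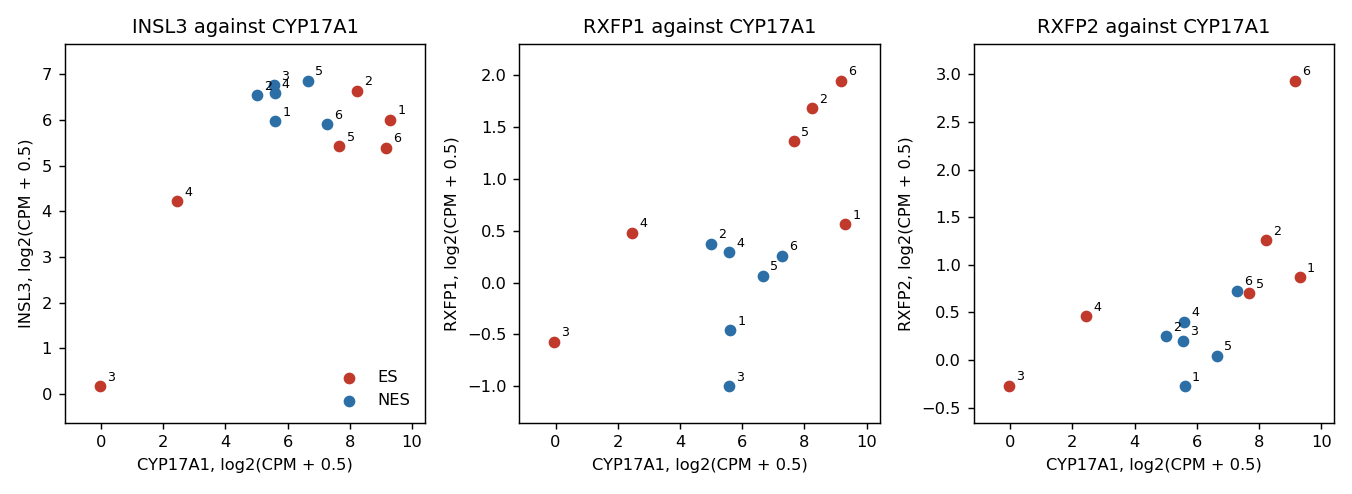
Level of INSL3, RXFP1 and RXFP2 (vertical axes) against that of CYP17A1 (horizontal axes), both as log2(CPM + 0.5), in each ovary, with ES gilts in red, NES gilts in blue and the replicate number beside each point. For INSL3 the ovaries ES3 and ES4 sit apart at the lower left, and Pearson's r was 0.716 with them and -0.550 without them. Every ES ovary other than these lies above every NES ovary in CYP17A1, so the value without them also carries the group difference.

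For the receptors, r with CYP17A1 was positive both with and without ES3 and ES4. Without those ovaries every ES ovary lay above every NES ovary in CYP17A1, and in RXFP1 too. The r without them thus also carries the difference between the groups. For RXFP2, r was 0.637 (permutation p = 0.0364, adjusted p = 0.0574) and rho 0.720 (permutation p = 0.0106, adjusted p = 0.0318), and without ES3 and ES4 r was 0.753 (permutation p = 0.00314). Within groups r was 0.722 in the ES ovaries (exact permutation p = 0.0806) and 0.444 in the NES ovaries (exact permutation p = 0.369). The NES rho was 0.086 (exact permutation p = 0.919), and r with group means subtracted was 0.702 (permutation p = 0.0615). For RXFP1, r was 0.603 (permutation p = 0.0383, adjusted p = 0.0574) and rho 0.643 (permutation p = 0.0287, adjusted p = 0.0575), and without ES3 and ES4 r was 0.721 (permutation p = 0.0201). Within groups r was 0.819 in the ES ovaries (exact permutation p = 0.0389) and 0.205 in the NES ovaries (exact permutation p = 0.715). The NES rho was -0.200 (exact permutation p = 0.714), and r with group means subtracted was 0.714 (permutation p = 0.0329). After adjustment over 6 relations only the rank correlation of RXFP2 with CYP17A1 passed 0.05 among the 4 adjusted values. With 1 ovary left out in turn, the permutation p of r reached 0.101 for RXFP1 and 0.0598 for RXFP2.

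Of the 6 relations, that between the 2 receptors was the one whose r passed 0.05 after adjustment. RXFP1 and RXFP2 had r = 0.820 (permutation p = 0.00014, adjusted p = 0.00084) and rho = 0.860 (adjusted permutation p = 0.00324). Without ES2 and ES6, the ovaries farthest from the median of RXFP2, r was 0.714 (permutation p = 0.0203), and it lay between 0.798 and 0.871 with any 1 ovary left out. Within groups r was 0.839 in the ES ovaries (exact permutation p = 0.0375) and 0.471 in the NES ovaries (exact permutation p = 0.339). INSL3 had r = 0.185 with its receptor RXFP2 (permutation p = 0.451) and 0.195 with RXFP1 (permutation p = 0.532). Within the ES ovaries r was 0.593 with RXFP2 (exact permutation p = 0.224) and 0.826 with RXFP1 (exact permutation p = 0.0417), and within the NES ovaries -0.124 (exact permutation p = 0.775) and -0.122 (exact permutation p = 0.871). The rho of these last relations over 12 ovaries was -0.126 and -0.196, and their r without ES3 was -0.283 and -0.324.

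The ratio of INSL3 to CYP17A1 puts the 2 theca products on 1 scale, and it was added after their values were seen. In FPKM the ratio had a median of 0.773 in the ES ovaries, with a range from 0.207 to 10.5, against a median of 4.73 and a range from 1.10 to 8.41 in the NES ovaries. In ES1 to ES6 it was 0.289, 0.948, 3.87, 10.5, 0.598 and 0.207. ES1, ES2, ES5 and ES6 thus lay below every NES ovary, while ES4 lay above all of them. The log2 difference was -1.94, and an exact two-sided permutation test over 924 arrangements gave p = 0.0909.

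Of the theca and androgen synthesis list 16 of 22 genes were tested, and 3 of them passed, all lower in ES, as 0.793% of all tested loci did, with 12 of the 16 log2 differences above 0. Their median log2 difference was 0.55, beside 0.043 over all tested loci, and 0.76 without ES3. The 3 that fell were PTCH1, the hedgehog receptor, GLI1, a hedgehog transcription factor, and HHIP, a hedgehog-binding inhibitor. HHIP averaged 8.10 ± 5.11 CPM in the ES ovaries and 41.9 ± 13.1 CPM in the NES ovaries (log2 difference -2.37, adjusted p = 0.0358 by edgeR). GLI1 averaged 4.84 ± 2.04 CPM in the ES ovaries and 18.5 ± 5.19 CPM in the NES ovaries (log2 difference -1.94, adjusted p = 0.0337 by edgeR). PTCH1 averaged 141 ± 70.2 CPM in the ES ovaries and 512 ± 169 CPM in the NES ovaries (log2 difference -1.86, adjusted p = 0.0387 by edgeR, 0.0522 with no filter on low loci). For each of the 3 all 6 ES ovaries lay below all 6 NES ovaries, as they did for 0.906% of tested loci. Each kept an adjusted p under 0.05 when ES1, ES3, ES5 or NES6 was left out, and the adjusted p reached 0.0978 to 0.104 when one of the other 8 was.

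None of the steroid enzymes and hormone receptors of the same list passed the test. CYP11A1, which starts steroid synthesis from cholesterol, averaged 378 ± 558 CPM in the ES ovaries and 54.6 ± 21.2 CPM in the NES ovaries (log2 difference 2.79, adjusted p = 0.0894 by edgeR). STAR, which brings cholesterol into mitochondria, averaged 329 ± 298 CPM in the ES ovaries and 44.7 ± 15.8 CPM in the NES ovaries (log2 difference 2.88, adjusted p = 0.0844 by edgeR). LHCGR, the receptor for luteinizing hormone, averaged 414 ± 433 CPM in the ES ovaries and 285 ± 92.4 CPM in the NES ovaries (log2 difference 0.54, adjusted p = 0.697 by edgeR). In ES3, where INSL3 and CYP17A1 were lowest, STAR read 11.6 CPM and LHCGR 48.8 CPM, the lowest of the 12 ovaries, but CYP11A1 read 193 CPM.

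**Figure D4:**
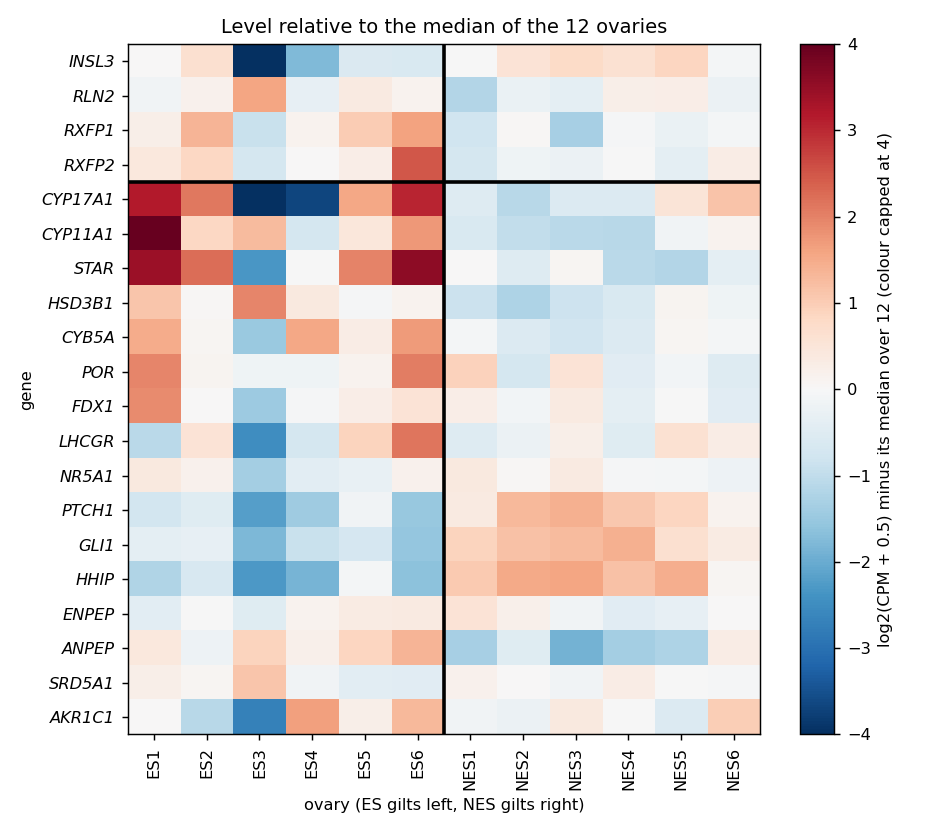
Level of INSL3, RLN2, RXFP1, RXFP2 (above the line) and 16 theca and androgen synthesis genes (below it) in each ovary, as log2(CPM + 0.5) minus the gene's median over 12 ovaries, with ES gilts left and NES gilts right and colours capped at 4. INSL3 and CYP17A1 are both deep blue in ES3, while PTCH1, GLI1 and HHIP are lower in all 6 ES ovaries.

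The proteases that can cut the INSL3 precursor and the regulators of its promoter gave no call. Of the prohormone convertases 5 were tested with a median log2 difference of 0.52, which was 0.32 without ES6. Those with the smallest p were FURIN, a general secretory pathway protease, at 78.9 ± 43.1 CPM in the ES ovaries and 46.3 ± 5.57 CPM in the NES ovaries (adjusted p = 0.216 by edgeR), its relative PCSK6 (adjusted p = 0.260) and the carboxypeptidase CPE (adjusted p = 0.281). Of the transcription factors known from the INSL3 and CYP17A1 promoters 10 were tested with a median log2 difference of -0.07, which was 0.11 without ES3. The smallest p was that of GATA4, at 236 ± 72.3 CPM in the ES ovaries and 341 ± 65.7 CPM in the NES ovaries (adjusted p = 0.239 by edgeR). NR5A1, steroidogenic factor, was lowest in ES3 at 32.8 CPM, and over the groups it averaged 77.4 ± 28.5 CPM in the ES ovaries and 90.7 ± 16.0 CPM in the NES ovaries (adjusted p = 0.683 by edgeR). Of the leucine-rich repeat receptors 3 of 8 were tested and none passed. FSHR, the receptor for follicle stimulating hormone, averaged 30.1 ± 20.1 CPM in the ES ovaries and 67.7 ± 23.0 CPM in the NES ovaries (adjusted p = 0.216 by edgeR).

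Lists of markers of other cells gave few calls, and some medians depended on 1 library. The macrophage list had a median log2 difference of 1.27 over 10 tested genes with no call, and -0.009 without ES3. The epithelium list had 1.97 over 6 genes with no call, and 0.72 without ES6. The lymphocyte list had 0.88 over 8 genes, stroma and matrix 0.51 over 11, smooth muscle 0.54 over 10 and endothelium 0.29 over 9, all with no call. All tested lymphocyte, smooth muscle and endothelium genes had a log2 difference above 0, and their medians stayed above 0 without ES1, ES3 or ES6. The oocyte list had -0.15 over 5 genes with no call, -0.06 without ES6 and -0.40 without ES1. The granulosa list had a median of 0.14 over 13 genes, with 7 above 0 and 6 below, and -0.35 without ES6. Of these IHH, a hedgehog ligand, passed, lower in ES (log2 difference -3.01, adjusted p = 0.0420 by edgeR). The luteal list had a median of 1.01 over 11 genes, with 10 above 0, and 0.44 without ES1. Its 1 gene below 0, PTGFRN, a regulator of the prostaglandin F receptor, was also its 1 call (log2 difference -1.27, adjusted p = 0.0390 by edgeR). With 1 library left out in turn IHH passed in 3 of 12 fits and PTGFRN in 2, and with no filter their adjusted p was 0.0560 and 0.0522. The part of these cells in the INSL3 and RXFP2 values was not tested. Without both ES3 and ES6 the edgeR difference of INSL3 was -0.67 (adjusted p = 0.489) and that of RXFP2 0.91 (adjusted p = 0.314).

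The loci whose pattern was most like that of each member were taken from 8566 named loci with a mean of at least 1 FPKM. For INSL3 these were AFAP1L2 (r = 0.955 over 12 ovaries), TGFBR3 (0.952), LAMC3 (0.952), CCDC8 (0.933) and SCML2 (0.933). TGFBR3, a co-receptor of the transforming growth factor beta family that binds inhibin, averaged 191 CPM in the ES ovaries and 320.2 CPM in the NES ovaries, with 73.6 CPM in ES3. Its r with INSL3 was 0.965 after the group means were subtracted and 0.861 without ES3. Without ES3, r was 0.816 for AFAP1L2, 0.822 for LAMC3, 0.711 for CCDC8 and 0.687 for SCML2. CYP17A1 stood at place 404 among loci ranked by likeness to INSL3.

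For RXFP1 the most alike were PPP1R1B (r = 0.952), MEIS1 (0.917), SYNM (0.891), PGM5 (0.880) and METTL24 (0.870). MEIS1 is a homeobox transcription factor, and SYNM and PGM5 belong to the cytoskeleton of muscle cells. For RXFP2 they were ABO (r = 0.930), ALS2CL (0.925), PKHD1L1 (0.923), RFX2 (0.911) and LDHD (0.909). RFX2, a regulator of cilium genes, read 39.3 CPM in ES6 against at most 9.03 CPM in any other ovary, and its r with RXFP2 was 0.623 without ES6. Without ES6, r was 0.751 for ABO, 0.756 for ALS2CL, 0.696 for PKHD1L1 and 0.677 for LDHD. These correlations are descriptions over libraries that share their preparation, and none of the 15 loci passed the test between groups.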

How the data were processed

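Ovarian total RNA of 6 ES and 6 NES gilts was examined, grouped by sample title. Per the labels' protocols, Trizol RNA was freed of ribosomal RNA, and dUTP was used to keep the strand. HISAT2, TopHat, cutadapt and FastQC are listed without versions, per the submitters' processing notes, with the build Sscrofa11.1. Which program and strand setting did the counting, and on which annotation, is not stated in these sources.

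The authors deposited 1 table holding, for each locus and library, a raw count and a value in FPKM, per the file headers. The authors scaled the FPKM values for library size and length. Members were matched by symbol. Of 5465 bare identifiers, 1036 were named from a name table and 616 loci from RefSeq genes on that build (each covering at least 0.5 of the other).

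Counts of 20421 loci averaging 0.5 FPKM or more were tested with edgeR's quasi-likelihood test, TMM factors and no covariate. RXFP1 and RXFP2 fell under that minimum and were read from the fit over all 29150 loci. P-values were adjusted by Benjamini and Hochberg over every locus in the fit, with calls made under 0.05. Standard errors of log2 differences were derived from the F statistic. Correlations used log2(CPM + 0.5), with 100000 permutations over 12 ovaries and exact permutations within groups of 6. The rule for named genes allowed the members, CYP17A1, the relaxin family, of every other list the called genes and up to 3 with the smallest p, and the 5 loci most alike to each member. Some list genes that the rule allowed are not named. Genes named beyond that rule, JAK3, CYP11A1, NR5A1 and FOXJ1 among them, were chosen after their values were seen. STAR and LHCGR, which the rule allowed through the luteal and leucine-rich repeat receptor lists, were also picked after their values were seen. The members and the 14 gene lists were chosen with earlier results of these data known. Scripts were checked on simulated counts. Alternatives were DESeq2, limma on FPKM and TPM, other scalings and filters, the title number as a block and libraries left out. Tests ran in R 4.3.3 (DESeq2 1.42.0, limma 3.58.1, edgeR 4.0.16). Correlations and figures used Python 3.11.15 with scipy 1.17.1, matplotlib 3.10.9, numpy 2.4.6 and pandas 2.3.3.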

Additional observations from a re-analysis of the deposited data

Results flagged for a closer look

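Groups of 6 ovaries were searched for a single ovary far from the others, by its gap to the nearest divided by the group's range of log2(CPM + 0.5). Of 18 groups 3 exceeded the critical value of 0.625, which chance exceeds in about 1 in 20 groups of normally distributed values. The 18 groups share the same 12 libraries, and JAK3 among their genes was chosen after its values were seen. The count of 3 can therefore not be set against that rate. INSL3 in ES3 was the lowest of the ES ovaries with a gap of 0.626 of the range, at 0.628 CPM beside 18.2 CPM in the next. RLN2 in ES3 was the highest of the ES ovaries with a gap of 0.642, at 7.17 CPM beside 2.76 CPM in the next. RXFP3 in NES3 was the highest of the NES ovaries with a gap of 0.696, at 0.870 CPM or 52 counts beside 0.323 CPM in the next.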

How the results depend on the processing

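The sign of the INSL3 difference held in 27 alternatives (-2.05 to -0.53, adjusted p from 0.306 to 0.613), that of RXFP1 in 25 (0.17 to 2.18, 0.162 to 0.451) and that of RXFP2 in 25 (0.26 to 2.02, 0.0986 to 0.595). The low ends for the receptors came from limma on log2(FPKM + 1). That pseudocount is above their mean FPKM and makes the difference smaller, so these values are not on the scale of the edgeR differences. The exact permutation test gave -1.89 (p = 0.0130) for INSL3, 0.30 (p = 0.0519) for RXFP1 and 0.40 (p = 0.121) for RXFP2. CYP17A1 was -0.034 with limma on TPM, 0.018 to 0.41 with limma on FPKM, 0.26 in the exact permutation test (p = 0.861) and 0.82 under the replicate block. The median of all loci was -0.109 with TPM, against 0.043. Called loci numbered 28 with no filter, 1065 with DESeq2, 365 with total counts, 330, 322 and 337 with limma on FPKM at pseudocounts of 0.5, 0.1 and 1, 1 without ES3 and ES6, 1 without ES3 and ES4 (added after seeing the data), and 0 to 415 with 1 library left out. With the title number as a replicate block, 0 were called (2708 at an unadjusted p under 0.05). Same-numbered libraries deviated together with r from -0.070 to 0.289, so the numbers were not shown to pair the ovaries; under the block INSL3 was -1.45, RXFP1 1.88 and RXFP2 1.08.

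For INSL3 with CYP17A1, rho was 0.168, r without the 2 farthest ovaries -0.550, 0.938 under the block, and 0.251 to 0.778 with 1 ovary left out. For RXFP1 with CYP17A1, r was 0.550 with a pseudocount of 0.1, 0.789 under the block and 0.519 to 0.673 with 1 left out. For RXFP2 with CYP17A1, r was 0.582 on FPKM, 0.702 with group means subtracted, 0.803 under the block and 0.610 to 0.677 with 1 left out. For INSL3 with RXFP2, rho was -0.126, and r -0.283 to 0.394 with 1 left out. For INSL3 with RXFP1, rho was -0.196, r with group means subtracted 0.694, and -0.324 to 0.353 with 1 left out. RXFP1 with RXFP2 kept its sign and an unadjusted permutation p under 0.05 in all 20 settings, which do not include the separate groups. The cause of these shifts was not tested. Summing loci per symbol was not run, as each member has 1 locus, and a minimum of 1 FPKM leaves no receptor value. The receptors' depth limits their precision.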
